A study of Mus musculus with 5 samples.

Results

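The genes described here encode the Sm and LSm proteins, the SF3a and SF3b subunits, the PRPF proteins and the SR proteins, which together make up much of the core machinery of pre-mRNA splicing. They were taken by symbol, as genes whose single annotated symbol begins with Lsm, Snrp, Sf3a, Sf3b, Prpf or Srsf followed by the usual number or letter, and each was represented by its probe set of highest mean over the 5 arrays. This gave 53 of the 22180 genes with a single symbol, in 5 classes: 9 Sm and other snRNP genes, 13 LSm genes, 9 SF3a and SF3b genes, 12 PRPF genes and 10 SR genes. The study measured heart RNA of Akita mice, which carry a mutation in Ins2 (Ins2+/-) and are a model of type 1 diabetes, on 2 whole-transcript arrays (replicates 1 and 3), and of wild type mice on 3 arrays (replicates 3, 4 and 5). Both groups were males of the C57BL/6 background aged 12 weeks, and the labels name no treatment and no part of the heart. Nothing in the labels ties each array to its own mouse, and the spread behind every p-value may therefore be technical.

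Splicing removes introns from pre-mRNA in the spliceosome, which is assembled from small nuclear ribonucleoproteins (snRNPs), each a small nuclear RNA with its proteins. Sm proteins form a ring around most of these RNAs and LSm proteins form a similar ring on U6, while SF3a and SF3b let the U2 snRNP hold the branch site and PRPF proteins build and remodel the complex. SR proteins bind exons and help to choose splice sites, and in the heart such choices set the isoforms of sarcomere and calcium-handling proteins.

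No splicing factor passed the adjusted threshold in Akita hearts, but most lay slightly lower. In the limma fit, adjusted by the Benjamini-Hochberg method across 15528 tested genes, 0 of the 51 members that passed the filter on dim genes had an adjusted p under 0.05, where 0.328% of all genes tested did. The lowest adjusted p among them was 0.165, and 0 differed by 1.5-fold or more. At an unadjusted p under 0.05, 10 members lay lower in Akita and 0 lay higher, or 19.6% of the members lower beside 9.49% of all genes tested, and 0 higher beside 4.13%. An unmoderated linear model called 0 of all genes at the adjusted threshold, so that its 0 members there say nothing about the members, and gave 7 lower (13.7%, beside 7.94% of all genes) and 1 higher at the unadjusted one. Of the 51, 40 lay lower (78.4%, beside 56.4% of all genes tested) and 11 higher, a split that became 26 lower and 25 higher when each array was centred on its median over the genes tested and 45 lower and 6 higher when it was centred over all probe sets of the table. Both centrings move all genes, and the median log2 difference over all genes tested became 0.0625 and -0.12 under them, in that order. The medians over the members were then -0.00083 and -0.18. Without Akita replicate 1 the split of the members was 29 lower and 21 higher, beside 8106 of 15528 genes tested lower. In 21 members (41.2%) both Akita arrays lay below all wild type arrays, beside 19.9% of all genes tested, and in 3 (5.88%) both lay above, beside 9.89%. The median log2 difference was -0.095 over the members and -0.03 over all genes tested. It was -0.07 over the genes above log2 5.21, the 50th percentile of mean signal over all 22180 genes. The members were brighter than genes at large, with a median log2 signal of 7.37, against 6.31 over all genes tested. Both medians lay above that cut. Of the 11092 genes above the 50th percentile, 65.5% lay lower, 12.2% lay lower at an unadjusted p under 0.05 and 25.4% had both Akita arrays below all wild type arrays. These shares lie between those of the members and those of all genes tested. The 10 members at an unadjusted p under 0.05 were Lsm14b, Lsm2, Sf3a2, Snrpb, Lsm1, Srsf10, Srsf1, Snrpd2, Srsf6 and Lsm6, in that order of p. The first 4 stayed under 0.05 in all 15 alternatives run.

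**Figure D1:**
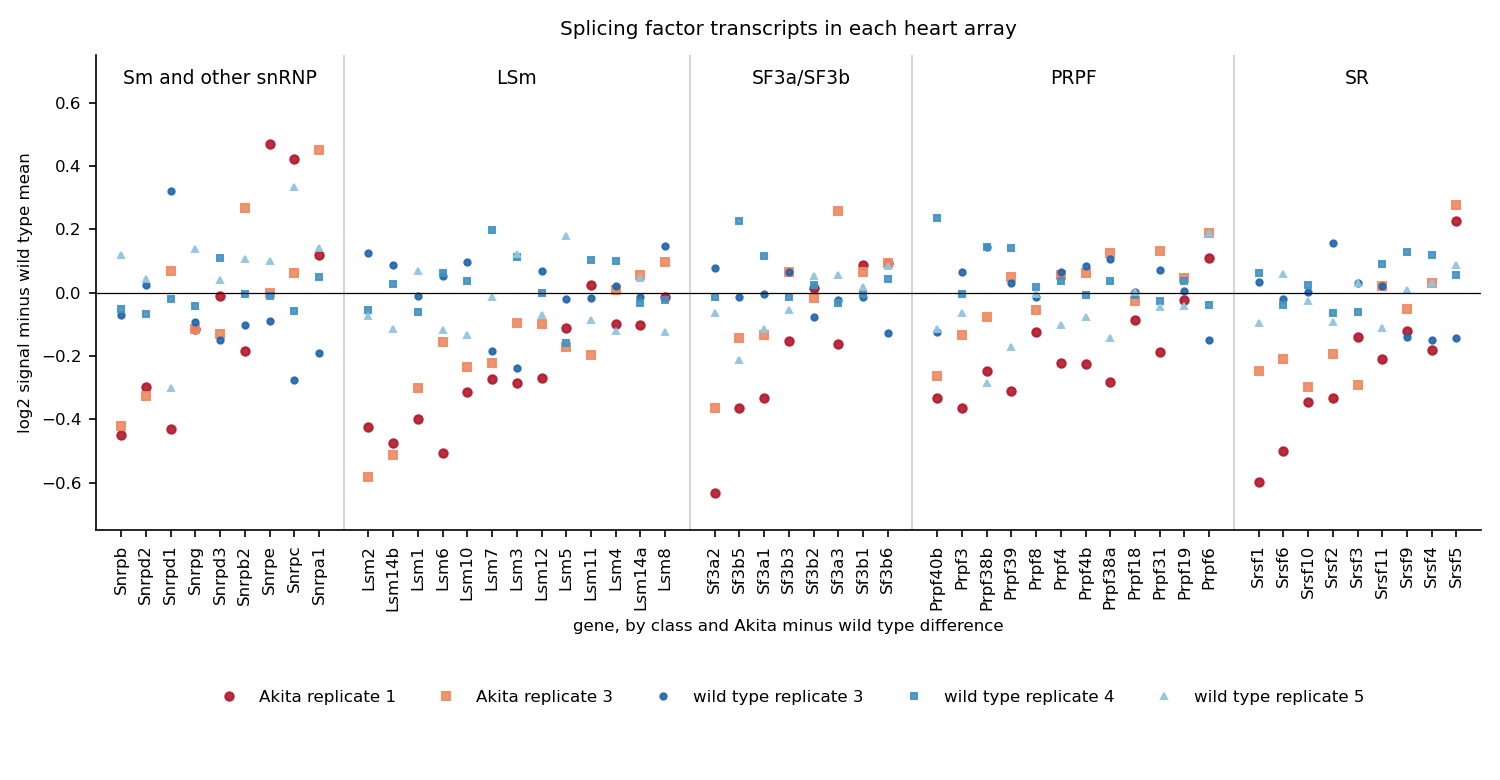
Log2 signal of each of the 51 members tested, as the difference from the wild type mean of that gene (vertical axis), for 2 Akita arrays (red circle and orange square) and 3 wild type arrays (blue marks). Genes run along the horizontal axis by class and by difference. Lsm2, Lsm14b, Snrpb and Sf3a2 have both Akita arrays well below the wild type ones, while several PRPF genes have the Akita arrays on either side of 0.

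The start regions of the lower genes with the smallest p that had a window in the RefSeq table (GRCm38.p6), 1 per class with such a gene, are shown with that of Srsf5, the SR gene that lay higher, so that the letters before the start can be read for genes on both sides. Each is the 200 bases before the annotated start, 5′ to 3′ on the gene's strand. Capitals mark CCAAT (the CCAAT box), TATAAA (the TATA box), CGGAAG (the core of ETS factor sites), GGGCGG (the GC box) and CACGTG (the E-box), searched on both strands. Marks that overlap run together.
Snrpd2, chr7:19149638-19149837, + strand: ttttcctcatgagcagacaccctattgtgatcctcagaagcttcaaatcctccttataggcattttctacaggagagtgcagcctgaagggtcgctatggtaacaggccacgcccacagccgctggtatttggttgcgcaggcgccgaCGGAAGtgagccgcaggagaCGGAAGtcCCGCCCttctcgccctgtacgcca
Lsm14b, chr2:180024787-180024986, + strand: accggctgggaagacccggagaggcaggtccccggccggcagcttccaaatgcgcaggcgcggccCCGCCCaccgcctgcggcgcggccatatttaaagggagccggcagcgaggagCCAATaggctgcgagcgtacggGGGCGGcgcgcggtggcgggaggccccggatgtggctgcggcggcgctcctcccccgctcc
Sf3a2, chr10:80798535-80798734, + strand: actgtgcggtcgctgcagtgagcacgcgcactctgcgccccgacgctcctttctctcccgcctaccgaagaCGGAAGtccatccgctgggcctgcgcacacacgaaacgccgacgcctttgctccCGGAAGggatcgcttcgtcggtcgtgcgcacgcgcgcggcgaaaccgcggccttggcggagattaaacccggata
Srsf10, chr4:135855871-135856070, + strand: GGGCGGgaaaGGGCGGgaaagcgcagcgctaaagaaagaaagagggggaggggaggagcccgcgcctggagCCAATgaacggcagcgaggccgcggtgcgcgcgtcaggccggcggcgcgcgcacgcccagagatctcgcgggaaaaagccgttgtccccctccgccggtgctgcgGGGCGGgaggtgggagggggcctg
Srsf5, chr12:80945299-80945498, + strand: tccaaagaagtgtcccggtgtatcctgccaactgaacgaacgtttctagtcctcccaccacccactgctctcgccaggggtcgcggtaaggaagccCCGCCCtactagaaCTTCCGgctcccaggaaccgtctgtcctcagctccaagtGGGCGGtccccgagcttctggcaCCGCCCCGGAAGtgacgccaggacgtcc
CGGAAG stood in the windows of 23 of the 44 members that had one (52.3%), against 19.6% of 12042 genes tested and 12.3% of all 27025 genes with a window. GGGCGG stood in 26 (59.1%), against 52.1% of genes tested, and CCAAT in 17 (38.6%), against 31.4%. TATAAA stood in 3 (6.82%, against 5.94% of genes tested) and CACGTG in 2 (4.55%, against 7.11%). Of the 8 members with a window that lay lower at an unadjusted p under 0.05, 2 held CGGAAG, 5 GGGCGG and 3 CCAAT. Both Snrpd2 and Sf3a2 held CGGAAG, and so did Srsf5, which differed in the other direction. These matches describe letters and were not tested for binding.

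Among the Sm and other snRNP genes, the pattern was mixed, with Snrpb and Snrpd2 lower in Akita hearts and Snrpa1, Snrpe and Snrpc higher without passing either threshold. Snrpb encodes SmB, a ring protein shared by the spliceosomal snRNPs other than U6. Its log2 signal was 6.89 and 6.92 in Akita, against 7.27, 7.29 and 7.46 in the wild type hearts. The groups did not overlap and the Akita arrays lay close together (log2 difference -0.435, SE 0.11, adjusted p = 0.201, 1.35-fold lower). Snrpd2, which encodes SmD2, another ring protein, stood at 7.50 and 7.47 in Akita, against 7.82, 7.73 and 7.84 in wild type hearts (log2 difference -0.31, SE 0.11, adjusted p = 0.291). Again every Akita value lay under every wild type value. The remaining ring genes did not separate the groups so clearly. Snrpd3 stood at 9.55 and 9.43 in Akita and 9.41, 9.67 and 9.60 in wild type hearts, a difference of -0.07 (0.02 with arrays centred on the genes tested). Snrpg stood at 7.28 and 7.28 in Akita, just under its wild type values of 7.30, 7.35 and 7.53. For Snrpe the Akita arrays disagreed, at 6.86 and 6.39, against 6.30, 6.38 and 6.49 in wild type, so the difference of 0.24 (SE 0.16, adjusted p = 0.559) came from replicate 1 and was 0.00 without it. Snrpd1 spread widely within both groups, at 5.80 and 6.30 in Akita and 6.55, 6.21 and 5.93 in wild type hearts. Over the 6 ring genes tested, 5 lay lower (83.3%, beside 56.4% of all genes tested) and 1 higher. Snrpf, which encodes SmF of the same ring, was not among the members.
Snrpa1 encodes a protein of the U2 snRNP. It stood at 7.32 and 7.65 in Akita, against 7.01, 7.25 and 7.34 in wild type hearts (log2 difference 0.285, SE 0.15, adjusted p = 0.466). Its groups overlapped, since Akita replicate 1 lay under wild type replicate 5. Snrpc, which encodes a U1 snRNP protein of 5′ splice site recognition, differed by 0.24, with a spread among the wild type arrays, 6.30 to 6.91, wider than that. Snrpb2, the partner of the Snrpa1 protein, differed by 0.04. The class median was -0.07 and became 0.02 with arrays centred on the genes tested.

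The LSm genes were lower in 12 of 13 cases (92.3%, beside 56.4% of all genes tested). With arrays centred on the genes tested 9 were lower, where the median over all genes tested was 0.0625. At an unadjusted p under 0.05, 4 lay lower (30.8%, beside 9.49% of all genes tested). Lsm14b, whose protein sits in cytoplasmic mRNA granules and represses translation, had the smallest p of all members. It stood at 7.82 and 7.78 in Akita, against 8.38, 8.32 and 8.18 in wild type hearts (log2 difference -0.49, SE 0.11, adjusted p = 0.165, 1.41-fold lower). The Akita arrays differed from each other by far less than from any wild type array. Its paralogue Lsm14a stood at 8.08 and 8.24 in Akita, against 8.17, 8.15 and 8.23 in wild type hearts, and differed by -0.02 (0.05 with quantile normalization again and 0.07 with arrays centred on the genes tested). The within-array log2 ratio of Lsm14b to Lsm14a was -0.26 and -0.46 in Akita, against 0.21, 0.17 and -0.05 in wild type arrays. Both Akita ratios lay under all wild type ratios, a difference of -0.47. The exact permutation test gave a two-sided p = 0.1, the smallest that 2 against 3 arrays can give. Adjusted over the 4 gene pairs compared, that p was 0.4. Across arrays this ratio cancels a shift common to an array; its level in any single array has no meaning, since 2 probe sets differ in response.
Of the ring that binds the end of U6 snRNA, Lsm2 to Lsm8, 6 of 7 genes lay lower (85.7%, beside 56.4% of all genes tested). At an unadjusted p under 0.05, 2 of them did (28.6%, beside 9.49%). Lsm2 stood at 6.07 and 5.91 in Akita, against 6.62, 6.44 and 6.42 in wild type hearts (log2 difference -0.50, SE 0.12, adjusted p = 0.175, 1.42-fold lower). The groups lay clearly apart. Lsm6 stood at 7.50 and 7.85 in Akita, against 8.06, 8.07 and 7.89 in wild type hearts (log2 difference -0.33, SE 0.14, adjusted p = 0.364). Here replicate 3 lay just under the wild type range, and the difference was -0.16 without Akita replicate 1. Lsm7 stood at 7.40 and 7.45 in Akita, against 7.49, 7.87 and 7.66 in wild type hearts, and Lsm3 at 7.54 and 7.73, against 7.59, 7.94 and 7.95. Lsm4 and Lsm8 differed by -0.045 and 0.04, less than their SE of 0.12 each. Lsm5 had a mean of 4.06, exactly at the filter, and differed by -0.14.
Lsm1 takes the place of Lsm8 in a cytoplasmic ring that promotes mRNA decapping and decay. It stood at 6.00 and 6.10 in Akita, against 6.39, 6.34 and 6.47 in wild type hearts (log2 difference -0.35, SE 0.11, adjusted p = 0.254, 1.27-fold lower). The groups did not overlap. Lsm10 and Lsm11 belong to the U7 snRNP, which trims the ends of histone pre-mRNAs. Lsm10 stood at 7.32 and 7.40 in Akita, against 7.73, 7.67 and 7.50 in wild type hearts (log2 difference -0.27, adjusted p = 0.374), while Lsm11, a dim gene, overlapped between the groups and differed by -0.09. Lsm12 stood at 9.42 and 9.59 in Akita, against 9.76, 9.69 and 9.62 in wild type hearts (log2 difference -0.185, SE 0.12, adjusted p = 0.530). The class median was -0.19 (-0.10 with arrays centred on the genes tested).

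**Figure D2:**
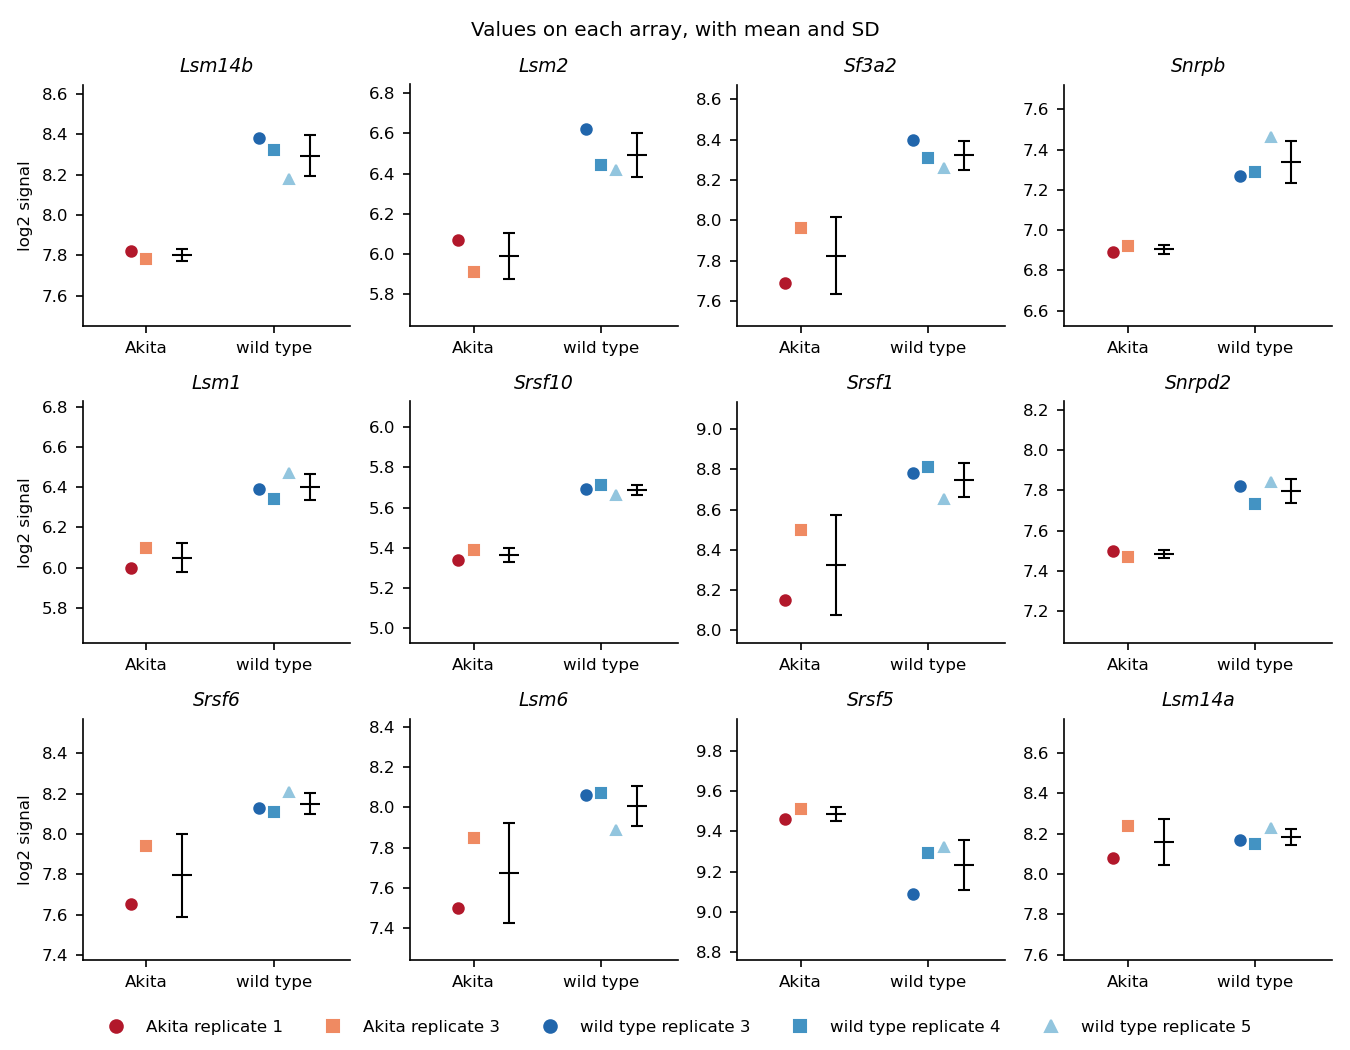
Log2 signal on each array (vertical axis) for the 10 members at an unadjusted p under 0.05, for Srsf5 and for Lsm14a, with Akita at left and wild type at right of each panel. Coloured marks are single arrays and black bars the mean and SD of each group (n = 2 Akita, n = 3 wild type). The Akita arrays lie below the wild type arrays in the first 10 panels, above them for Srsf5 and among them for Lsm14a. All panels span the same height in log2 units.

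In the SF3a and SF3b complexes, Sf3a2 had the largest difference of the genes tested. Whether it differed from its partners was not tested. Sf3a2 encodes the SF3a subunit of intermediate size, part of the U2 snRNP as it settles on the branch site. It stood at 7.69 and 7.96 in Akita, against 8.40, 8.31 and 8.26 in wild type hearts (log2 difference -0.50, SE 0.13, adjusted p = 0.189, 1.41-fold lower). Both Akita arrays lay well under the wild type range, replicate 1 the further (log2 difference -0.36 without it). The other subunits of SF3a differed by less. Sf3a1 stood at 7.49 and 7.69 in Akita, against 7.82, 7.94 and 7.71 in wild type hearts (log2 difference -0.23, SE 0.13, adjusted p = 0.467). Its groups did not overlap either. Sf3a3 had 7.05 and 7.47 in Akita, on either side of 7.19, 7.18 and 7.27 in wild type hearts.
Among the SF3b genes, Sf3b1, which encodes the subunit that clamps the branch site helix, stood at 9.24 and 9.22 in Akita, against 9.14, 9.15 and 9.17 in wild type hearts. The groups did not overlap, but the difference was only 0.08 (SE 0.10, adjusted p = 0.791; -0.01 with arrays centred on all probe sets). Sf3b6, whose protein touches the branch site adenosine, stood at 7.92 and 7.92 in Akita, against 7.70, 7.87 and 7.91 in wild type hearts (log2 difference 0.09). Sf3b2 and Sf3b3 differed by 0.00 and -0.04. Sf3b5, which encodes the smallest SF3b protein, stood at 6.81 and 7.03 in Akita, against 7.16, 7.40 and 6.96 in wild type hearts (log2 difference -0.25, SE 0.16, adjusted p = 0.525). Sf3b4 was under the filter, at 3.81 and 3.47 in Akita and 3.11, 2.97 and 3.43 in wild type arrays, and was not tested. The class median was -0.02 (0.07 with arrays centred on the genes tested).

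The PRPF genes gave no member at an unadjusted p under 0.05. Of 12, 10 lay lower in the group means (83.3%, beside 56.4% of all genes tested). By Akita replicate 3 alone 5 of 12 did, beside 8106 of 15528 genes tested. By Akita replicate 1 alone 11 of 12 did, beside 9359 of 15528. Prpf40b, a WW-domain protein related to a yeast U1 snRNP factor, stood at 6.33 and 6.40 in Akita, against 6.54, 6.90 and 6.55 in wild type hearts (log2 difference -0.30, SE 0.14, adjusted p = 0.416). Prpf3, a protein of the U4/U6 snRNP, stood at 6.39 and 6.62, against 6.82, 6.75 and 6.69 (log2 difference -0.25, SE 0.12, adjusted p = 0.423). In both the groups did not overlap. Prpf6, which bridges the parts of the tri-snRNP, was the gene of the class that lay higher by more than its SE, at 8.09 and 8.17 in Akita and 7.83, 7.94 and 8.17 in wild type hearts (log2 difference 0.15, SE 0.13, adjusted p = 0.666). Prpf8, the scaffold at the catalytic centre, stood at 9.82 and 9.89, against 9.93, 9.96 and 9.94 in wild type hearts, a non-overlapping difference of -0.09 (adjusted p = 0.756). Prpf19, the ubiquitin ligase of the complex named after it, stood at 10.27 and 10.34 in Akita, against 10.30, 10.33 and 10.25 in wild type hearts, a difference of 0.01 that turned to -0.02 with arrays centred on the named genes and -0.07 with arrays centred on all probe sets.
Prpf4, the kinase gene Prpf4b, Prpf18, Prpf31, Prpf38a and Prpf39 differed by -0.13 to -0.03. Prpf38b stood at 6.17 and 6.34 in Akita, against 6.56, 6.56 and 6.13 in wild type hearts, with overlapping groups (log2 difference -0.16, SE 0.16, adjusted p = 0.706). Prpf38a, whose product shares a domain with it, differed by -0.08 (0.02 with arrays centred on the genes tested), and the within-array ratio of Prpf38b to Prpf38a moved by -0.08 (exact permutation test, two-sided p = 0.6). In Prpf38a, Prpf39, Prpf31, Prpf4 and Prpf4b, Akita replicate 1 lay under the wild type mean and replicate 3 above it. The class median was -0.08 (0.01 with arrays centred on the genes tested), with -0.225 in replicate 1 and 0.05 in replicate 3.

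The SR genes showed lower values for Srsf10, Srsf1 and Srsf6 and a higher one for Srsf5. Srsf1, an SR protein needed in mice for the splicing changes of the maturing heart, stood at 8.15 and 8.50 in Akita, against 8.78, 8.81 and 8.65 in wild type hearts (log2 difference -0.42, SE 0.14, adjusted p = 0.274, 1.34-fold lower). Both Akita values lay under the wild type range, and a dimmer probe set of Srsf1 also differed by -0.355. Without Akita replicate 1 the difference was -0.25. Srsf10, an SR protein that turns repressor when dephosphorylated, stood at 5.34 and 5.39 in Akita, against 5.69, 5.71 and 5.66 in wild type hearts (log2 difference -0.32, SE 0.10, adjusted p = 0.269). Its values were tight within each group. Srsf6 stood at 7.65 and 7.94, against 8.13, 8.11 and 8.21 in wild type hearts (log2 difference -0.355, SE 0.13, adjusted p = 0.301), and was at -0.21 without Akita replicate 1.
Srsf2, an SR protein of nuclear speckles, stood at 9.66 and 9.80 in Akita, against 10.15, 9.93 and 9.90 in wild type hearts (log2 difference -0.26, SE 0.13, adjusted p = 0.416). Srsf3, which also acts in mRNA export, stood at 6.60 and 6.45, against 6.77, 6.68 and 6.77 in wild type hearts (log2 difference -0.215, adjusted p = 0.452). Neither gene overlapped between the groups. Srsf5 went the other way, at 9.46 and 9.51 in Akita, against 9.09, 9.29 and 9.32 in wild type hearts (log2 difference 0.25, SE 0.12, adjusted p = 0.411, 1.19-fold higher). Both Akita arrays lay above all wild type arrays. Whether Srsf5 differed from the other SR genes in its response was not tested.
Srsf4, Srsf9 and Srsf11 differed by -0.075, -0.085 and -0.095, each less than its SE (0.02 for Srsf4 with arrays centred on the genes tested). Srsf12, at 4.08 in both Akita arrays and 4.10, 3.95 and 3.88 in wild type arrays, was under the filter and not tested. The within-array ratio of Srsf6 to Srsf4 moved by -0.28 (exact permutation test, two-sided p = 0.2) and that of Srsf1 to Srsf2 by -0.16 (exact permutation test, two-sided p = 0.4). The class median was -0.215 (-0.12 with arrays centred on the genes tested). Of 9 genes tested, 8 lay lower (88.9%, beside 56.4% of all genes tested). With that centring 6 lay lower, where the median over all genes tested was 0.0625.

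The Akita arrays were not alike. Akita replicate 1 lay below replicate 3 in 38 of the 51 members (74.5%), beside 58.5% of all genes tested. Taken against the wild type mean of each gene, the median log2 difference over the members was -0.21 in replicate 1 and -0.05 in replicate 3. Over all genes tested it was -0.07 and -0.01, and over the 11092 genes above the 50th percentile of signal -0.14 and -0.02. The number of members at an unadjusted p under 0.05 and lower was 5 without Akita replicate 1, namely Lsm14b, Lsm2, Sf3a2, Snrpb and Snrpd2 (9.80%, beside 5.48% of all genes in that fit), and 10 without Akita replicate 3 (19.6%, beside 13.99%). Markers of other cell types moved with the groups too. All 7 white adipocyte markers on the array, of which 5 were tested, and all 7 fibroblast markers lay higher in Akita. The adipocyte markers had a summed linear signal of 4042 and 4145 in Akita replicates 1 and 3 and 3082 to 3417 in wild type. Fabp4 made up most of that sum, at log2 11.91 and 11.91 in Akita and 11.59, 11.52 and 11.67 in wild type arrays. Plin1, Cidec, Retn and Pck1, also tested, had log2 means of 5.355 to 5.92 in Akita and 4.73 to 5.13 in wild type. The fibroblast markers had sums of 5069 and 6586, against 4698 to 4839. The 5 atrial markers were all higher in the Akita mean, with sums of 5179 and 16046 in Akita replicates 1 and 3 and 4346 to 4684 in wild type arrays, but 3 of the 5 lay under the wild type mean in replicate 1. Their mean log2 signal was 7.75 in Akita replicate 1 and 10.76 in Akita replicate 3, against 7.93 to 8.19 in wild type arrays. Sln, an atrial regulator of the calcium pump, stood at 6.71 and 10.85 in Akita, against 7.74, 8.13 and 7.95 in wild type arrays. Of 8 ventricular myocyte markers, 0 lay higher, and their sum was 54846 and 54266 in Akita and 56591 to 57671 in wild type arrays. Of 5 macrophage markers 1 lay higher (sums of 581 and 736 in Akita and 785 to 835 in wild type), of 5 endothelial markers 4 (4776 and 5348, against 4288 to 4750), of 4 mesothelial and epicardial markers 3 (228 and 389, against 214 to 219) and of 3 lymphocyte markers 1 (81.4 and 100.3, against 91.8 to 103.1), while the 1 erythroid marker lay higher (50.9 and 41.6, against 33.4 to 44.0). The part of these cell types in the values of the splicing genes was not tested, and in a heart sample fewer cells of a type and less RNA per cell cannot be told apart.

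**Figure D3:**
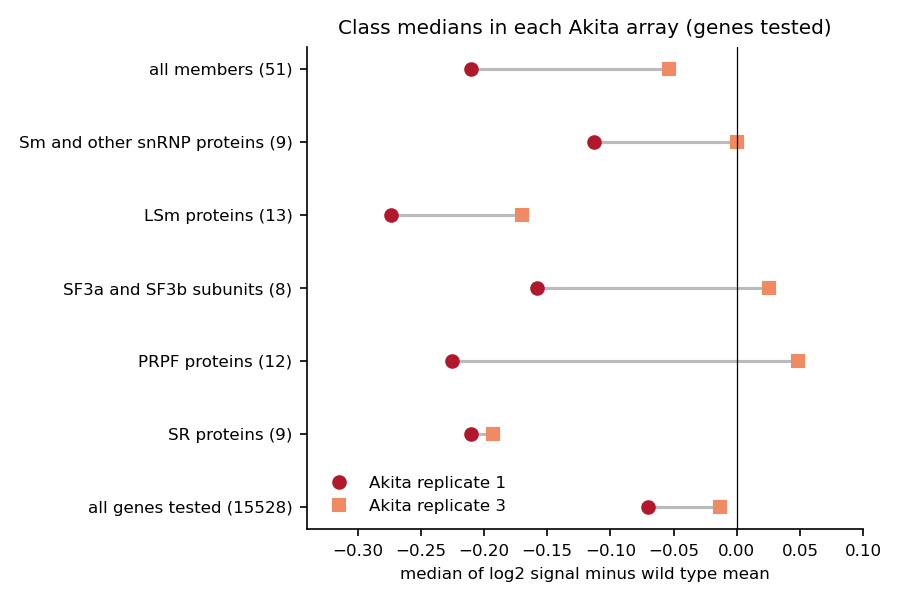
Median, over the genes of a class, of the log2 difference of 1 array from the mean of wild type (horizontal axis), in Akita replicate 1 (circle) and Akita replicate 3 (square), with the number of genes tested in brackets. The SR and LSm classes lie below 0 in both Akita arrays, while the PRPF class is at -0.225 in replicate 1 and 0.05 in replicate 3.

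The shorter genes of the set had the lower median. Of the 51 members, 20 spanned under 10 kb of the genome in the RefSeq table, with a median log2 difference of -0.22, and 31 spanned 10 kb or more, with a median of -0.08. The boundary was chosen after the values were seen. Over all genes tested the medians were -0.02 and -0.035. Spearman's rho between difference and span was 0.308 across the 51 members, which share arrays and are not independent, and 0.00069 across 15431 genes tested with a span. The median span was 12.5 kb for the members, 7.50 kb for the 10 at an unadjusted p under 0.05, and 20.3 kb over all genes tested. The 4 members of 10 kb or more that lay lower at an unadjusted p under 0.05 were Lsm14b (10.6 kb), which had the smallest p of all members, Lsm1 (18.7 kb), Lsm6 (16.3 kb) and Srsf10 (14.2 kb), and short genes with higher values were Srsf5 (5.01 kb) and Snrpe (6.41 kb).

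**Figure D4:**
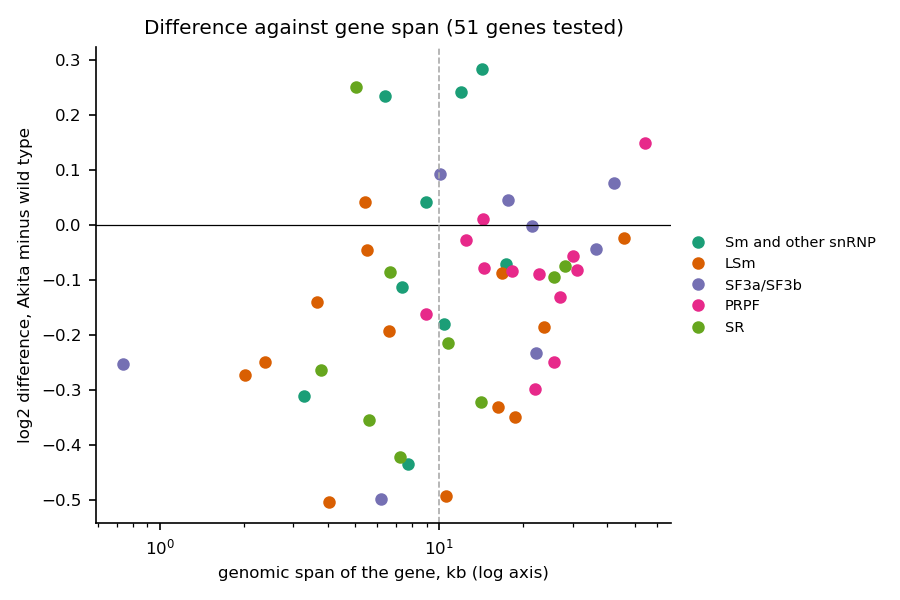
Log2 difference, Akita minus wild type (vertical axis), against genomic span in kb on a log axis, for the 51 members tested, coloured by class. The dashed line marks 10 kb. Genes left of it have a median of -0.22 and genes right of it a median of -0.08.

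Other genes of the splicing pathway, from 9 lists of partners, lay lower in most cases in 8 of the lists (in 6 with arrays centred on the genes tested). Of all genes tested, 56.4% lay lower in the main fit. With that centring the median over all genes tested was 0.0625. No list had a gene past the adjusted threshold. Summed over the lists, 22 of 139 genes had an unadjusted p under 0.05 and lay lower (15.8%, beside 9.49% of all genes tested), and 0 lay higher (beside 4.13%). In the Prp19 and heart regulator lists the share lower at that limit, 9.52% and 10.5%, was near that of all genes. The summed counts were 9 lower (6.47%, beside 5.48% of all genes) and 4 higher without Akita replicate 1, and 38 lower (27.3%, beside 13.99%) and 0 higher without Akita replicate 3. With arrays centred on the genes tested they were 12 lower (8.63%, beside 5.11%) and 5 higher. The share of all genes higher in these alternative fits is not given here. In U2AF and branch site factors 12 of 12 genes lay lower (median -0.26), 5 of them at an unadjusted p under 0.05 but 1 without Akita replicate 1. Ddx39b, a helicase that aids U2 snRNP binding and mRNA export, stood at 7.64 and 7.62 in Akita, against 8.30, 8.08 and 8.23 in wild type hearts (log2 difference -0.57, SE 0.12, adjusted p = 0.135), and Cherp, a U2-associated protein, differed by -0.43. Of 19 other U snRNP genes 17 lay lower (median -0.11, 4 at an unadjusted p under 0.05). Zmat5, a gene of the minor U11/U12 snRNP, stood at 6.04 and 6.02, against 6.61, 6.68 and 6.67 in wild type hearts (log2 difference -0.62, SE 0.10, adjusted p = 0.0844), and Luc7l3, a U1-associated gene, differed by -0.55.
In snRNP assembly, 11 of 14 genes lay lower and 3 had an unadjusted p under 0.05. With arrays centred on the genes tested 5 of 14 lay lower, where the median over all genes tested was 0.0625. Prmt5, the methyltransferase that modifies Sm proteins before the ring is loaded, stood at 8.35 and 8.64 in Akita, against 9.41, 8.97 and 9.02 in wild type hearts (log2 difference -0.64, SE 0.17, adjusted p = 0.203), and its partner Wdr77 differed by -0.36. Of SR protein kinases and SR-related genes 15 of 16 lay lower (8 of 16 with that centring), 4 at an unadjusted p under 0.05, with the smallest p in the kinase genes Clk1 (-0.395) and Srpk3 (-0.46). In the Prp19 and activated-spliceosome list 16 of 21 lay lower, 2 at an unadjusted p under 0.05, Smndc1 (-0.44) and Bud31 (-0.31).
Heart splicing regulators lay lower in 14 of 19 cases, 2 at an unadjusted p under 0.05. Rbm38, an RNA-binding regulator of muscle splicing, stood at 8.79 and 8.86 in Akita, against 9.55, 9.51 and 9.58 in wild type hearts (log2 difference -0.72, SE 0.11, adjusted p = 0.0542), the smallest p in these lists, and Rbpms differed by -0.32. The hnRNP genes differed from the rest in their split, with 9 of 22 lower and 13 higher (median 0.04, or -0.04 with arrays centred on all probe sets), and 1 at an unadjusted p under 0.05, Hnrnph1 (-0.30); Pcbp1 had the next smallest p (-0.20). That difference between lists was not tested. Of 9 decay partners of Lsm1, 6 lay lower and 1 had an unadjusted p under 0.05, the decapping gene Dcp1a (-0.365), followed by Eif4enif1 (-0.40). Of 7 partners of Lsm10 and Lsm11 in histone pre-mRNA processing 6 lay lower, Cpsf3 (-0.25) and Cpsf2 (-0.29) first by p, and 0 had an unadjusted p under 0.05.

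**Figure D5:**
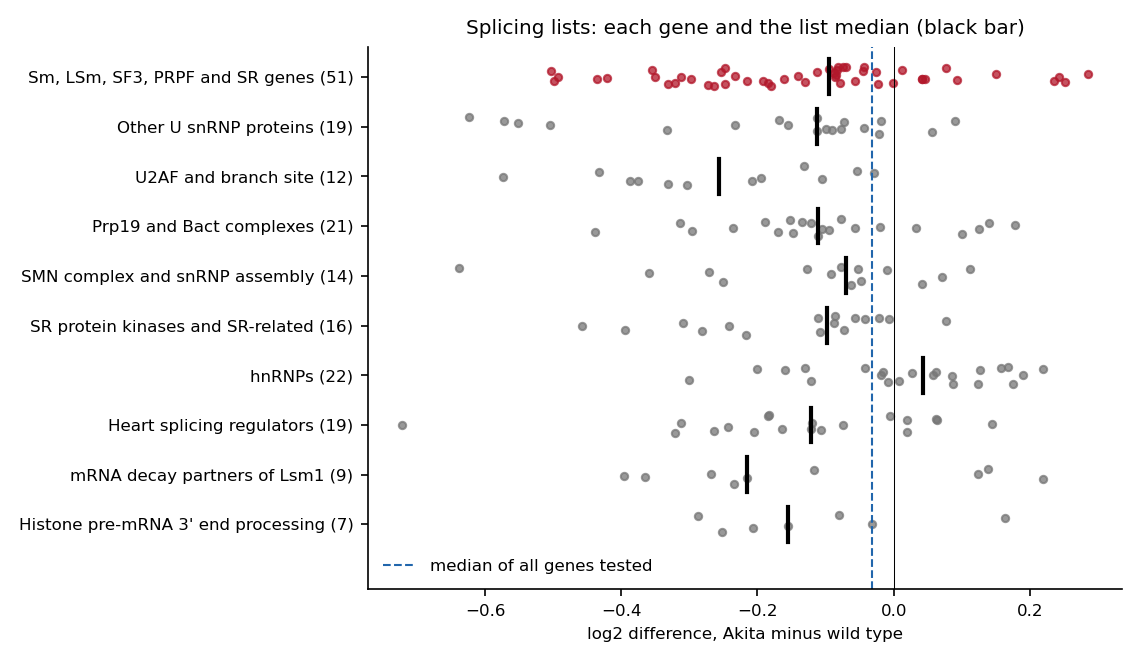
Log2 difference, Akita minus wild type (horizontal axis), of each gene tested in the Sm, LSm, SF3, PRPF and SR set (red) and in 9 lists of partners (grey), with the number of genes in brackets. Black bars are list medians and the dashed line the median of all genes tested, -0.03. The U2AF and branch site list has its median at -0.26 and the hnRNP list at 0.04, which was -0.04 with arrays centred on all probe sets.

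Several members had more than 1 probe set. Srsf1, Srsf6, Lsm7 and Snrpd1 had a dimmer probe set that differed in the same direction, by -0.355, -0.305, -0.17 and -0.32. Those of Sf3b2 and Sf3b3 were under 3.5 on the log2 scale. A further 6 probe sets matched the name rule through 1 of several symbols and were not used, since their signal cannot be assigned to 1 gene.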

How the data were processed

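Heart RNA of 2 Akita and 3 wild type samples was measured on whole-transcript arrays. The deposited values are log2 signals made by the authors with Affymetrix Expression Console, per the submitters' processing notes; the sources used here give neither its version nor its algorithm. They ran from 1.27 to 13.66, and the log base was read from that range. Array medians over the table were 4.71 for Akita replicate 1, 4.6 for Akita replicate 3 and 4.53 to 4.62 for wild type. Of 41345 probe sets, 23521 carry exactly 1 symbol, 1814 several and 16010 are not listed in the platform annotation. Background that was not removed would make differences of dim genes too small.

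Genes whose mean signal fell short of log2 4.06, its 30th percentile, were not tested. Akita minus wild type was fitted by limma (version 3.58.1, under R 4.3.3; two-sided moderated test from lmFit and eBayes, 3 residual and 4.38 prior degrees of freedom) and adjusted by Benjamini-Hochberg over 15528 genes. No batch is named in the labels. Values of every array are given for the 4 members of each class with the smallest p and the brightest member; other members given in full, Sf3b4, Srsf12 and the genes shown for their span were chosen after their values were seen. Of each partner list, the 2 genes with the smallest p are named. The members, classes and lists were chosen with earlier results of these data known. The alternatives, 15 in all, covered filter, probe set, normalization, centring, variance model, weights and each array left out; centring on all probe sets and on the genes tested was added after the data were seen. Promoter windows are from RefSeq (GRCm38.p6). Python 3.11.15, pandas 2.3.3, scipy 1.17.1 and matplotlib 3.10.9 made tables and figures.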

Additional observations from a re-analysis of the deposited data

How the results depend on the processing

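The number of members past the adjusted threshold was 0 in every alternative that kept both Akita arrays. Few genes passed in any of these, from 0 of all genes (unmoderated model) to 197 (intensity trend with a robust prior), and 0.328% in the main fit. At such shares a count of 0 says little about the members. Members lower at an unadjusted p under 0.05 numbered 10 (19.6%, beside 9.49% of all genes). Without wild type replicate 3 they numbered 7 (13.7%, beside 6.00%), without replicate 4 also 7 (13.7%, beside 5.65%), and without replicate 5 they numbered 8 (15.7%, beside 8.33%). They numbered 5 with arrays centred on the genes tested (9.80%, beside 5.11% of all genes) and 12 with arrays centred on all probe sets (23.5%, beside 12.5%). An intensity trend with a robust prior gave 12 (23.5%, beside 10.7%) and a filter at the 50th percentile 11 (22.4%, beside 13.9%). Members higher at that limit numbered 0 (beside 4.13% of all genes tested). They numbered 1 with no filter on dim genes (Sf3b4) and 1 with quantile normalization again (Snrpa1). An intensity trend with a robust prior (Srsf5) and the unmoderated model (Sf3b1) each gave 1 as well. Centring on the genes tested gave 2 (Snrpa1 and Srsf5), and leaving out a wild type array gave 0. The share of all genes higher in those alternative fits is not given here. The median over the members, -0.095, was -0.0458 with quantile normalization again, -0.18 with arrays centred on all probe sets, -0.00083 with arrays centred on the genes tested, and -0.21 to -0.0533 with an array left out. Centring moves each gene's difference by the same amount, and the median of all genes tested became -0.12 and 0.0625 under these 2 centrings, both chosen after seeing the data.

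Class medians with arrays centred on all probe sets were -0.155 for Sm and other snRNP, -0.28 for LSm and -0.30 for SR genes. With arrays centred on the genes tested they were 0.0242, -0.0975 and -0.121, and 0.0717 for SF3a and SF3b. With an array left out they ran from -0.27 to -0.17 for LSm, -0.16 to 0.025 for SF3a and SF3b, and -0.225 to 0.0483 for PRPF genes. Of 420 values of single genes under alternatives, 14 changed sign, 3 were exactly 0 and 403 kept their sign. In alternatives that kept both Akita arrays, 0 passed the adjusted threshold. The 403 include values that could not change sign. Changes of filter, the intensity trend with a robust prior and the unmoderated model leave a tested gene's difference as in the main fit. So does the mean of all probe sets for genes with a single probe set. The count of 403 therefore overstates how stable the signs were. With arrays centred on the genes tested, Snrpd3 was at 0.0242, Lsm14a at 0.0708, Prpf38a at 0.0158 and Srsf4 at 0.0192. Sf3b1 was at -0.00833 with arrays centred on all probe sets. Prpf19 was at -0.00333 with quantile normalization again, at -0.02 and -0.0733 with arrays centred on named genes and on all probe sets, and ran from -0.0233 to 0.0467 with an array left out. Lsm14a was at 0.0487 with quantile normalization again and ran from -0.103 to 0.0567 with an array left out, Prpf38a from -0.28 to 0.13 and Srsf4 from -0.18 to 0.03. No paired analysis was run, since the labels tie no Akita array to a wild type array. Precision is limited by how few arrays there are, and the cause of these changes was not tested.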
